A study of Mus musculus with 12 samples.

Results

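Growth hormone receptor, the IGF1 axis and liver genes that depend on growth hormone were followed in mouse liver across diet and dextran sulfate sodium (DSS), the polysaccharide used to induce colitis. The 10 genes were Ghr, Igf1, Igfals, Socs2, Hsd3b5, Selenbp2, Nudt7, Elovl3, Cyp4a12a and Cyp4a12b. They were taken by symbol from the 54532 gene IDs of the deposited expression table, because they belong to this axis and because several were lower with DSS. They were thus chosen by their FPKM values with and without DSS, and those values are given as a description. Counts of calls in these comparisons are printed only beside the share over all genes. All libraries were liver RNA from wild-type (WT) C57BL/6J mice. The 4 groups of 3 libraries were CD (a diet the labels do not spell out), HFD (high-fat diet), CD_DSS (CD with 2% DSS) and HFD_DSS (HFD with 2% DSS). No transgene, deletion or other treatment is named in the labels. Neither the sex and age of the mice nor the route and duration of DSS is stated in the labels. Whether each library of a group is a mouse of its own is not stated either, so a p-value reflects only the spread among libraries, and that spread could be technical.

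Growth hormone from the pituitary binds its receptor, encoded by Ghr, on hepatocytes and activates the kinase JAK2 and the transcription factor STAT5B. STAT5B raises Igf1, Igfals and the feedback inhibitor Socs2. In male rodents the hormone is released in pulses, and a set of liver genes with male-biased expression, among them Hsd3b5, Elovl3 and the Cyp4a12 genes, depends on those pulses.

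The depth of the libraries was 23.4 to 29.4 M fragments. Expression is given as FPKM, fragments scaled to gene length and library depth. Alb, which encodes serum albumin and marks hepatocytes, lay between 16129.5 and 37498 FPKM in the 12 libraries. Transcripts of Gh, the pituitary hormone gene, were listed at 0 in all 12. The RNA of the Y-linked gene Ddx3y lay between 8.62 and 14.7 FPKM in all 12 libraries and Xist at or below 0.0113 FPKM. Libraries within a group differed in the serum amyloid A gene Saa1, a marker of the acute phase. In libraries 1, 2 and 3, Saa1 was at 15, 49.2 and 32.8 FPKM (CD), 579, 19.9 and 22.4 (HFD), 9.14, 595 and 483 (CD_DSS), and 1104, 191 and 2670.4 (HFD_DSS). HFD 1 was thus high for an untreated library, CD_DSS 1 was as low as the untreated ones, and HFD_DSS 2 was the lowest of its group. Results that rest on these 3 libraries are given with and without them.

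All 10 genes had at least 1 FPKM in at least 3 libraries and so were among the 10806 genes tested. Differences are log2 fold changes of FPKM + 1 with their standard error (SE), first group against second, from a linear model (limma) over all 12 libraries. A gene was called when its p-value, adjusted over all genes tested by the Benjamini-Hochberg method, was under 0.05. In these bulk samples, fewer cells of a type and less RNA per cell cannot be told apart.

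The growth hormone receptor gene Ghr (ENSMUSG00000055737, chr15:3317760-3583492, minus strand, mm10) was lower in every DSS library than in any untreated one. Ghr was at 63.5, 70.7 and 72.3 FPKM in CD and at 54.6, 34.0 and 34.6 in CD_DSS. On HFD it was at 62.3, 70.8 and 68.4 FPKM without DSS and at 36.9, 53.5 and 47.3 with DSS. The groups did not overlap on either diet, and CD_DSS 1 and HFD_DSS 2 were the DSS libraries nearest to the untreated level. The log2 fold change was -0.76 (SE 0.18, 3 against 3 libraries) on CD and -0.55 (SE 0.18) on HFD.

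Igf1 (ENSMUSG00000020053, chr10:87858265-87937042, plus strand) encodes the growth factor through which much of the hormone's effect on growth is carried. Igf1 was at 55.0, 58.1 and 57.3 FPKM in CD, at 47.3, 51.3 and 49.0 in HFD, at 45.9, 47.8 and 42.5 in CD_DSS, and at 52.5, 68.8 and 53.5 in HFD_DSS. It was lower with DSS on CD and higher with DSS on HFD, without overlap on either diet, at log2 fold changes of -0.32 (SE 0.11) and 0.23 (SE 0.11). HFD_DSS 2 was the highest of the 12 libraries, HFD_DSS 1 and 3 lay below all CD libraries, and without HFD_DSS 2 the fold change on HFD was 0.11. Of the 10 genes, Igf1 and Socs2 had a positive fold change with DSS on HFD.

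Igfals (ENSMUSG00000046070, chr17:24865997-24882010, plus strand) encodes the acid-labile subunit, which holds IGF1 and IGFBP3 in a stable complex in blood. Igfals was at 55.5, 73.8 and 69.2 FPKM in CD and at 35.5, 50.5 and 54.1 in CD_DSS. Under HFD the levels were 51.3, 56.6 and 52.8 FPKM, and 38.3, 46.3 and 39.8 with DSS. The DSS groups lay below their untreated groups, narrowly on CD, at log2 fold changes of -0.51 (SE 0.16) and -0.37 (SE 0.16). Without CD_DSS 1 the value on CD was -0.32.

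The gene regions upstream of the start sites were searched for the palindrome TTCNNNGAA, the form of site that STAT5 proteins bind, which reads the same on both strands. Of the 10 genes, 6 matched the RefSeq promoter table (GRCm38.p6), with 10 windows of 250 bases upstream of a start. The palindrome was in 2 of these 10 windows, both of Igfals, and in 7.02% of all 32851 windows of the same length. A match is a description of letters and not a measured binding site. The stretches with a match are shown because Igfals is a classic STAT5 target, and those of Selenbp2 and Hsd3b5 because these genes had the largest differences with diet under DSS. Each is cut before the first annotated exon base, runs 5′ to 3′ on the gene's strand, and has the palindrome in capitals.
Igfals, upstream of start 24877844, chr17:24877594-24877655, plus strand: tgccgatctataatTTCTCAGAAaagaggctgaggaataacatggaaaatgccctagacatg
Igfals, upstream of start 24878231, chr17:24877981-24878214, plus strand: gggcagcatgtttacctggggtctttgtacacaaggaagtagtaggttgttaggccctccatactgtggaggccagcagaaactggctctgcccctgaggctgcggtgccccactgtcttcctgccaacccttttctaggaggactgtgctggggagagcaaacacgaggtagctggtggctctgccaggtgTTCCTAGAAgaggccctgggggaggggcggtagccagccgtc
Selenbp2, upstream of start 94693573, chr3:94693323-94693555, plus strand: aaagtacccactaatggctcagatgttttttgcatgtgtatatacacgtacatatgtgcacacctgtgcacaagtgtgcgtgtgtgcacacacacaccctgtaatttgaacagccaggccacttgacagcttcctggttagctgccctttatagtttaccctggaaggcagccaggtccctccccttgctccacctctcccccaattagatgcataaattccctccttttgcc
Hsd3b5, upstream of start 98645534, chr3:98645535-98645784, minus strand: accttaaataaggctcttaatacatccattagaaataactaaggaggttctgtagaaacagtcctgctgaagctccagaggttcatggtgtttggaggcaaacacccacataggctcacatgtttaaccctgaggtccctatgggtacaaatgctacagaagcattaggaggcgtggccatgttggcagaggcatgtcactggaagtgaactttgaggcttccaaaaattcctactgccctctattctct
The first Igfals match, TTCTCAGAA, starts 236 bases upstream of its start site, and the second, TTCCTAGAA, starts 58 bases upstream. Both Igfals stretches lie inside the annotated span of the gene. The printed stretches of Selenbp2 and Hsd3b5 hold none. The RefSeq start of Hsd3b5 lies outside the gene span of the annotation used for the expression values here.

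Socs2 (ENSMUSG00000020027, chr10:95385362-95417180, minus strand) encodes a suppressor of cytokine signalling that is induced by growth hormone and dampens its receptor. It was the lowest of the 10 genes, at a mean of 1.23 FPKM over the 12 libraries. Socs2 was at 1.72, 0.490 and 2.19 FPKM in CD, at 0.499, 0.827 and 1.63 in HFD, at 0.605, 0.732 and 0.877 in CD_DSS, and at 1.56, 2.35 and 1.28 in HFD_DSS. The DSS and untreated groups overlapped on both diets, with a 4.47-fold range within CD and a 3.26-fold range within HFD. The log2 fold change with DSS was -0.44 (SE 0.28) on CD and 0.48 (SE 0.28) on HFD. The value on CD was -0.77 without CD 2 and -0.22 without CD 3, and that on HFD was 0.30 without HFD 1. In the transcript, 26.8% of the bases lie in stretches of at least 50 bases shared with 2 other annotated genes, Gm9847 and Gm8000, so its count is uncertain where such reads were assigned.

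Hsd3b5 (ENSMUSG00000038092, chr3:98618634-98630252, minus strand) encodes a liver hydroxysteroid dehydrogenase of steroid metabolism that is a standard readout of male-pattern growth hormone. Hsd3b5 was at 140.0, 182 and 203 FPKM in CD and at 81.1, 33.2 and 35.0 in CD_DSS. The HFD libraries had 208, 249 and 234 FPKM, and 68.9, 170.1 and 138 with DSS. Every DSS library lay below every untreated library of its diet. The log2 fold change was -1.90 (SE 0.36) on CD and -0.96 (SE 0.36) on HFD, the latter -0.58 without HFD_DSS 1. Of its transcript, 34.7% lies in stretches identical to other genes of the family. The related genes Hsd3b2 and Hsd3b3, named after their values were seen, fell as well: Hsd3b2 by 1.15 (SE 0.20) on CD and by 0.87 (SE 0.20) on HFD, and Hsd3b3 by 1.17 (SE 0.15) and 0.88 (SE 0.15), on the log2 scale. Their limma adjusted p-values were 0.0149 and 0.0352 for Hsd3b2 and 0.00432 and 0.0149 for Hsd3b3. The Hsd3b3 call on CD held in 12 of 12 fits that each left out 1 library and that on HFD in 9, lost without HFD 2, HFD_DSS 1 or HFD_DSS 3. Hsd3b2 was not called on CD without CD 2, CD_DSS 2 or CD_DSS 3, nor on HFD in 5 of the 12 fits, those without CD 2, HFD 2, HFD 3, HFD_DSS 1 or HFD_DSS 3.

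Selenbp2 (ENSMUSG00000068877, chr3:94693556-94704413, plus strand) encodes a selenium-binding protein abundant in male mouse liver. It had the highest mean of the 10 genes, 441 FPKM over the 12 libraries. Selenbp2 was at 459, 589 and 698 FPKM in CD and at 105.2, 232 and 174 in CD_DSS. On HFD it was at 689, 641 and 669 FPKM, and at 292, 412 and 328 with DSS. The groups were apart on both diets, with log2 fold changes of -1.82 (SE 0.25) and -0.97 (SE 0.25). The lowest library, CD_DSS 1, was the DSS library with the lowest Saa1. Stretches identical to Selenbp1 make up 84.8% of the Selenbp2 transcript, so the split of reads between both is uncertain. Selenbp1, named after its values were seen, was at 116, 91.0 and 104 FPKM in CD and at 86.1, 93.0 and 93.0 in CD_DSS. Its log2 fold change was -0.19 (SE 0.14, limma adjusted p = 0.465) on CD and -0.53 (SE 0.14, adjusted p = 0.054) on HFD.

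Nudt7 (ENSMUSG00000031767, chr8:114133557-114154739, plus strand) encodes a peroxisomal hydrolase of coenzyme A. Nudt7 was at 110.5, 123 and 169 FPKM in CD and at 55.0, 40.9 and 32.3 in CD_DSS. HFD levels were 161, 127 and 134 FPKM, and 32.8, 118 and 115 with DSS. On HFD the distance rested on HFD_DSS 1, since the other two DSS libraries lay just below the lowest untreated library. The log2 fold change was -1.64 (SE 0.41) on CD and -0.86 (SE 0.41) on HFD, the latter -0.26 without HFD_DSS 1.

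Elovl3 (ENSMUSG00000038754, chr19:46131897-46135694, plus strand) encodes an elongase of very long chain fatty acids. Elovl3 was at 513, 596 and 643 FPKM in CD and at 416, 50.2 and 40.3 in CD_DSS. Under HFD the levels were 736, 505 and 658 FPKM, and 36.5, 479 and 219 with DSS. It varied most within the DSS groups, 10.3-fold in CD_DSS and 13.1-fold in HFD_DSS, against 1.25-fold in CD and 1.46-fold in HFD. CD_DSS 1 and HFD_DSS 2 lay just below the untreated libraries, and CD_DSS 2, CD_DSS 3 and HFD_DSS 1 lay far below. The log2 fold change was -2.60 (SE 0.92) on CD and -1.99 (SE 0.92) on HFD. Left-out libraries moved these values between -3.66 and -1.99 on CD and between -2.79 and -0.95 on HFD, the last without HFD_DSS 1.

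Cyp4a12a (ENSMUSG00000066071, chr4:115299046-115332815, plus strand) and Cyp4a12b (ENSMUSG00000078597, chr4:115411624-115439034, plus strand) encode male-biased cytochromes P450 that hydroxylate fatty acids. Cyp4a12a was at 89.5, 197 and 186 FPKM in CD and at 44.6, 28.8 and 21.2 in CD_DSS. The HFD libraries had 138, 162 and 149 FPKM, and 18.2, 57.7 and 52.1 with DSS. All 6 DSS libraries of Cyp4a12a lay below all 6 untreated ones, at log2 fold changes of -2.27 (SE 0.42) on CD and -1.95 (SE 0.42) on HFD. Cyp4a12b was at 18.7, 47.6 and 29.8 FPKM in CD and at 9.14, 5.71 and 3.63 in CD_DSS. On HFD it was at 25.9, 30.4 and 36.1 FPKM, and at 0.982, 11.8 and 6.41 with DSS. Its groups did not overlap either, with log2 fold changes of -2.18 (SE 0.57) and -2.46 (SE 0.57). The transcripts are 98.3% identical over 2396 aligned bases, with 74.2% of Cyp4a12a in identical stretches, so the split between both genes is uncertain. The ratio of Cyp4a12a to Cyp4a12b FPKM lay between 4.14 and 6.25 in 10 libraries, and was 8.12 in HFD_DSS 3 and 18.5 in HFD_DSS 1.

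**Figure D1:**
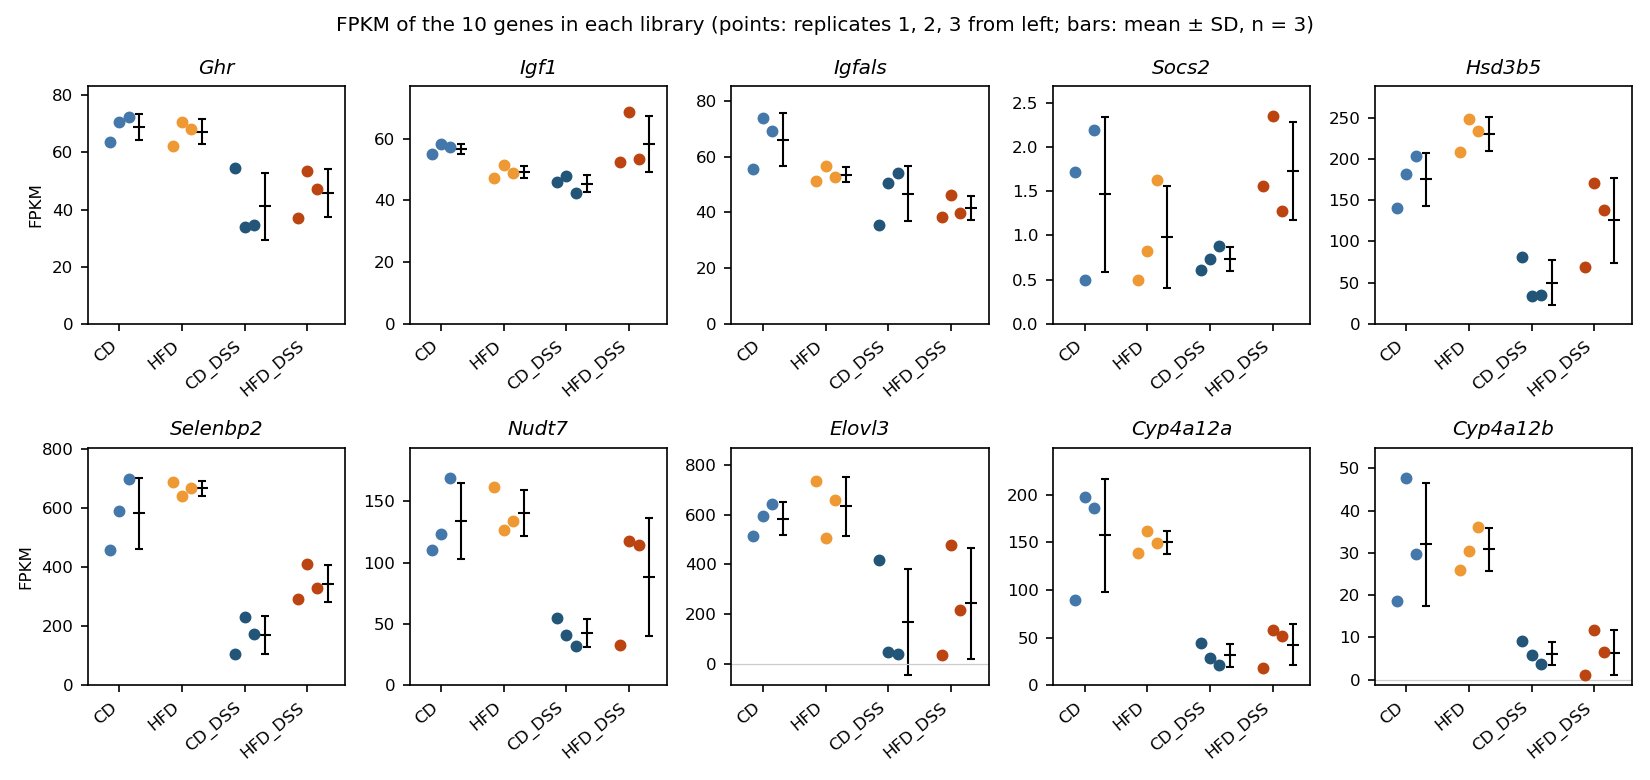
FPKM (y axis) of each of the 10 genes in the 4 groups (x axis). Points are libraries 1, 2 and 3 from the left in each group, and the bars beside them give the mean ± SD (n = 3). Hsd3b5, Selenbp2, Nudt7 and both Cyp4a12 genes lie low in all 3 CD_DSS libraries, and Elovl3 in 2 of them (416 FPKM in CD_DSS 1). Igf1 has its highest point in HFD_DSS 2, with the other HFD_DSS libraries below those of CD, and Socs2 overlaps between DSS and untreated groups on both diets.

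Counted over the set, 9 of the 10 genes had CD_DSS below CD without overlap, and 8 of 10 had HFD_DSS below HFD. Among all genes tested, 14.4% and 14.7% were below without overlap in these comparisons, 12.6% and 12.4% above, and 27% and 27.1% either way. In CD_DSS against CD, 5 of the 10 were called, all lower (Ghr, Hsd3b5, Selenbp2, Nudt7 and Cyp4a12a), where 4.8% of all genes tested were called. In HFD_DSS against HFD, 2 were called, both lower (Cyp4a12a and Cyp4a12b), where the share over all genes was 4.83%. These comparisons chose the genes, so nothing is read from either count. Over all genes tested, 217 rose and 302 fell on CD and 187 rose and 335 fell on HFD. After rescaling to equal totals per library (TPM), 222 rose and 141 fell on CD and 225 rose and 108 fell on HFD, so the split of calls depends on this scaling. The median log2 fold change of the 10 was -1.73 on CD and -0.91 on HFD, against -0.01 over all genes in both. Without HFD 1, CD_DSS 1 and HFD_DSS 2, which were picked by their acute phase levels after the data were seen, 8 and 7 were called. The count on CD ranged from 1 (without CD 2, CD 3, CD_DSS 2 or CD_DSS 3) to 7 and that on HFD from 0 (without HFD 2, HFD 3, HFD_DSS 1 or HFD_DSS 3) to 4 (without CD_DSS 1) when 1 library was left out. The CD count was 3 without CD 1, HFD 2, HFD 3 or HFD_DSS 3, and the HFD count was 1 without CD 3.

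Within the DSS groups the 10 genes did not move as 1 block. Against the mean of CD, the median over the 10 genes on the log2 scale was -0.98, -1.48 and -1.86 for CD_DSS libraries 1, 2 and 3, and -1.14, -0.32 and -0.62 for those of HFD_DSS. All 10 genes were below the CD mean in each CD_DSS library. HFD_DSS 2 was the DSS library nearest to CD, with 8 of 10 genes below. CD_DSS 1 and HFD_DSS 2, with the lowest Saa1 of their groups, were also the least lowered. HFD 1, with the highest Saa1 of the untreated libraries, had the lowest median of the HFD group, -0.12 against -0.02 and 0.09. Against the mean of HFD these medians were -0.08, 0.02 and 0.02. CD 1, with the lowest Saa1 of the untreated libraries, had the lowest median of them all, -0.25, with 9 of 10 genes below the CD mean. HFD_DSS 3 had more Saa1 than HFD_DSS 1 and a median nearer to CD. Selenbp2 and Igfals were at their lowest in CD_DSS 1, which also had the lowest Socs2 of its group. The part of the acute phase in these levels was not tested.

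**Figure D2:**
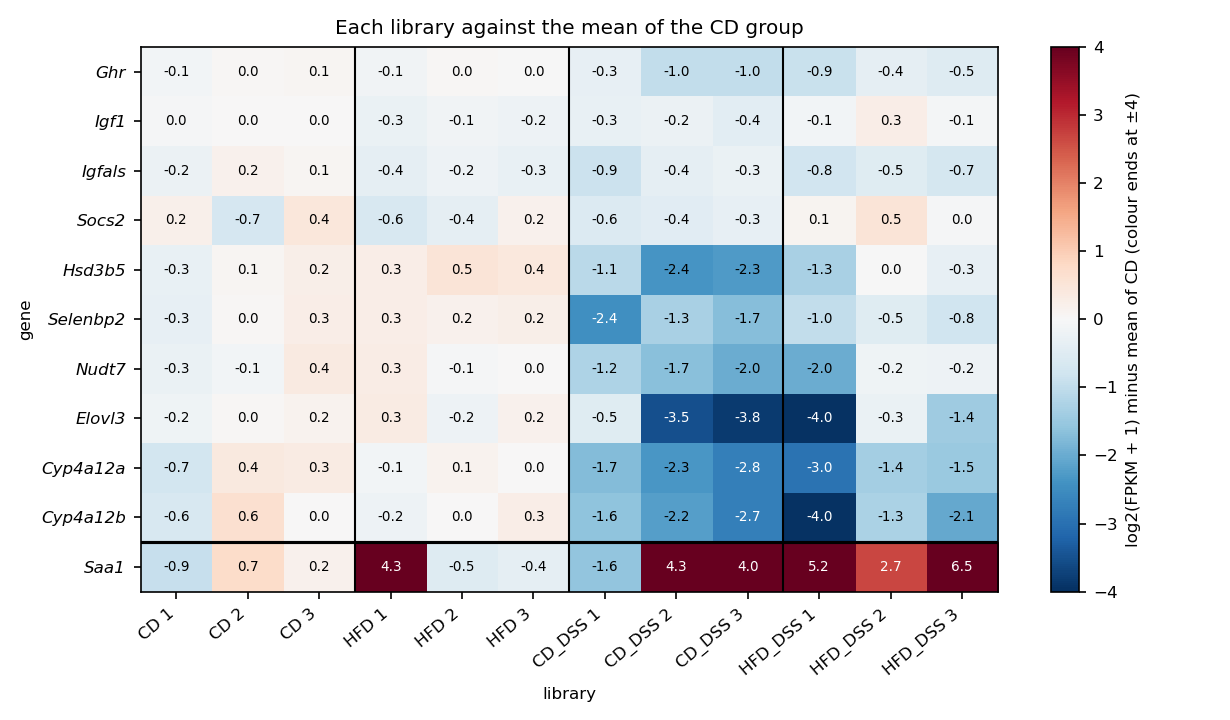
Log2(FPKM + 1) of each library minus the mean of the 3 CD libraries, for the 10 genes and, under the line, Saa1 (rows) in the 12 libraries (columns), with colour ending at ±4. Blue marks the CD_DSS columns for the dependent liver genes, except a pale cell for Elovl3 in CD_DSS 1 (-0.48). Among the 10 genes HFD_DSS 2 is pale except for Cyp4a12a (-1.35) and Cyp4a12b (-1.27). HFD 1 shows high Saa1 with values from -0.65 (Socs2) to 0.34 (Elovl3) in the rows above.

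Diet without DSS was not itself used to choose the genes. The CD and HFD values did enter the DSS comparisons that chose them, so this comparison is not wholly free of the choice. None of the 10 was called between HFD and CD by limma, none had an unadjusted p under 0.05, and voom on the recovered fragments called none. Of all genes tested, 0.00925% were called here. Hsd3b5 was above CD in every HFD library (log2 fold change 0.41, SE 0.36, limma adjusted p = 0.924), and Igf1 was below in every one (-0.20, SE 0.11, limma adjusted p = 0.783). The other 8 genes overlapped. Of all genes tested, 6.58% lay above and 6.54% below without overlap here, 13.1% in all. Their log2 fold changes ran from -0.29 (SE 0.16) for Igfals to 0.22 (SE 0.25) for Selenbp2, with limma adjusted p-values of 0.799 and 0.948. The spread allows sizeable differences for the widest genes: the SE was 0.92 for Elovl3 and 0.57 for Cyp4a12b.

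Diet with DSS was compared as HFD_DSS against CD_DSS. These groups are also those in which low levels chose the genes, so this comparison is not free of the choice. Hsd3b5 was higher on HFD by 1.35 (SE 0.36, limma adjusted p = 0.2) and Selenbp2 by 1.07 (SE 0.25, limma adjusted p = 0.143) on the log2 scale. Socs2 was higher by 0.63 (SE 0.28, adjusted p = 0.435) and Igf1 by 0.34 (SE 0.11, adjusted p = 0.27). Selenbp2, Socs2 and Igf1 were higher in each HFD_DSS library than in any CD_DSS library, while Hsd3b5 overlapped through HFD_DSS 1. None of the 10 passed the limma test, 4 had an unadjusted p under 0.05, and voom called none, where 0.102% of all genes tested were called (0.037% rose and 0.0648% fell). For the unadjusted p no share over all genes is given, so nothing is read from that count. The groups of 16.5% of all genes tested did not overlap, 7.53% with HFD_DSS above and 8.97% below. Ghr (0.17, SE 0.18), Igfals (-0.15, SE 0.16), Nudt7 (0.86, SE 0.41), Elovl3 (0.72, SE 0.92), Cyp4a12a (0.33, SE 0.42) and Cyp4a12b (-0.25, SE 0.57) overlapped between the diets, at limma adjusted p-values of 0.477 to 0.914. Single libraries set the size of these 6 differences, and 2 changed sign: Elovl3 was at -0.08 without HFD_DSS 2, and Cyp4a12b at 0.52 without HFD_DSS 1 and 0.04 without CD_DSS 1. Without HFD_DSS 2 the Igf1 difference was 0.22.

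The difference between the DSS effects on both diets was tested directly, HFD minus CD. It is built from the comparisons that chose the genes, so it is not free of the choice either. For Igf1 it was 0.55 (SE 0.15), with an unadjusted p of 0.00362 and a limma adjusted p of 0.708. Socs2 followed with 0.92 (SE 0.39, unadjusted p = 0.0384 and adjusted p = 1, limma) and Selenbp2 with 0.85 (SE 0.36, unadjusted p = 0.0364 and adjusted p = 1, limma). The other 7 genes lay between -0.28 (SE 0.81) for Cyp4a12b and 0.94 (SE 0.51) for Hsd3b5. Without CD_DSS 1 the Selenbp2 value was 0.54. None of the 10 was called by limma or voom, 3 had an unadjusted p under 0.05, and 0.00925% of all genes tested were called. Nothing is read from the count at unadjusted p, which has no share over all genes beside it. Across alternative settings the Igf1 difference stayed between 0.41 and 0.62, with adjusted p-values from 0.183 to 1. A DSS effect that differed between the diets was therefore not shown for any of the 10.

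**Figure D3:**
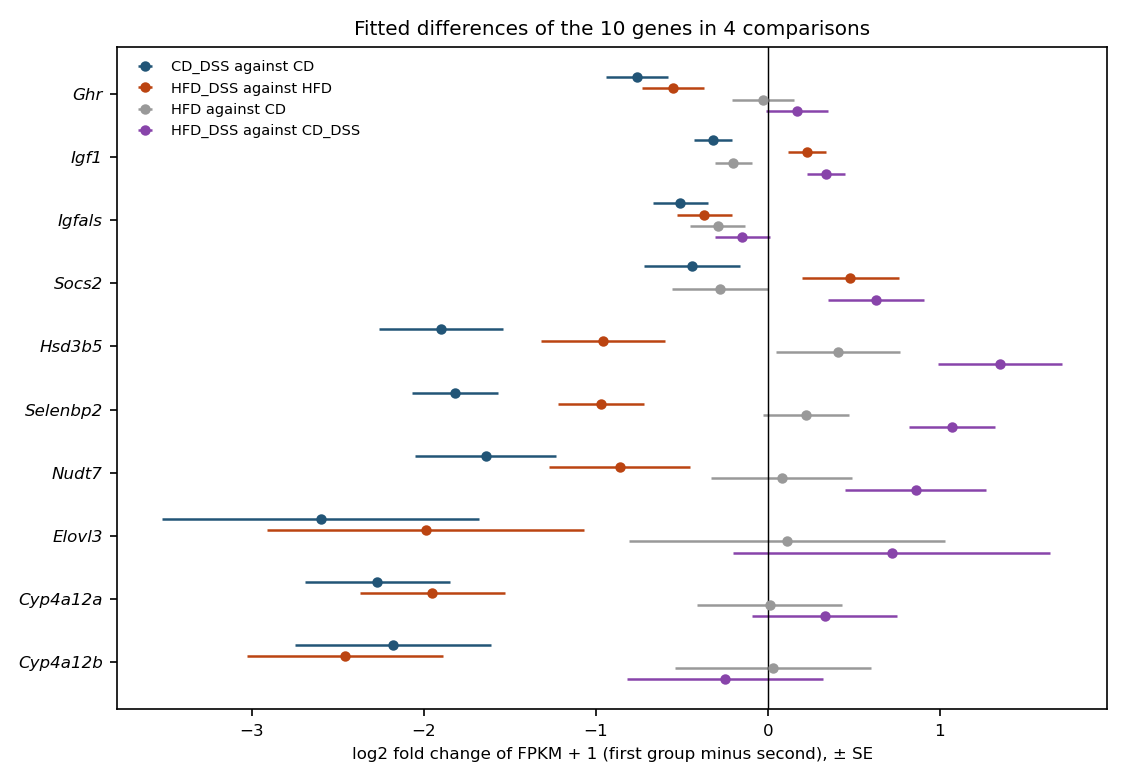
Log2 fold change of FPKM + 1 (x axis, points with ± SE) of the 10 genes (y axis) in 4 comparisons, each given as first group minus second. CD_DSS against CD lies left of 0 for all 10, HFD_DSS against HFD lies right of 0 for Igf1 (0.23) and Socs2 (0.48), and HFD against CD lies around 0.

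The rest of the growth hormone receptor pathway was read from a list of 21 genes, of which 20 were tested. This list and those below were chosen with earlier results of these data known, so their counts are a description. Of all genes tested, 2.01% rose with DSS on CD and 1.73% on HFD. In the list, 2 rose on CD and none fell: Socs3, an inhibitor induced by IL-6 as well as growth hormone, by 2.31 (SE 0.33, limma adjusted p = 0.00772) and Stat3, the transcription factor of IL-6 signalling, by 0.85 (SE 0.14, adjusted p = 0.0127). On HFD, 3 rose: Socs3 by 2.42 (SE 0.33, adjusted p = 0.00978), Stat3 by 0.60 (SE 0.14, adjusted p = 0.0375) and the prolactin receptor gene Prlr by 0.85 (SE 0.19, adjusted p = 0.0348). Socs3 was at 1.40, 1.22 and 0.939 FPKM in CD and at 7.67, 11.0 and 10.9 in CD_DSS. HFD levels were 4.02, 1.04 and 2.23 FPKM, and 14.7, 10.7 and 26.7 with DSS, so the groups were apart on both diets. Socs3 and Stat3 also belong to the acute phase list. The median over the 20 genes was 0.11 on CD and 0.05 on HFD.

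The kinase gene Jak2 and the STAT5 genes were not called. Jak2, the receptor's kinase, lay between 3.29 and 5.18 FPKM in all libraries, with log2 fold changes of 0.25 (SE 0.10, limma adjusted p = 0.139) on CD and -0.01 (SE 0.10, adjusted p = 0.955) on HFD. Stat5b, the main STAT of this pathway in liver, lay between 11.7 and 24.3 FPKM, with -0.17 (SE 0.24, limma adjusted p = 0.715) and -0.46 (SE 0.24, adjusted p = 0.267). Stat5a lay between 2.14 and 3.51 FPKM, with 0.01 (SE 0.13, limma adjusted p = 0.974) and -0.16 (SE 0.13, adjusted p = 0.495). Such values give transcript levels and not the activity of the proteins. The Socs3 call held in 12 of 12 fits without 1 library on CD and was lost on HFD without HFD 2. The Stat3 call was lost on CD without CD 2, CD_DSS 2 or CD_DSS 3, and on HFD in 8 of the 12 fits. Prlr was lost on HFD without any library of HFD or HFD_DSS.

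The IGF system list had 15 genes, of which 9 were tested and 6 were under 1 FPKM in all libraries. With DSS on CD, 1 fell: Igfbp5, a binding protein gene, by 0.92 (SE 0.23, limma adjusted p = 0.0497), a call that held in 1 of the 12 fits without 1 library. On HFD none was called, none had an unadjusted p under 0.05, and voom called none. Igfbp3, whose protein joins IGF1 and the acid-labile subunit, lay between 5.67 and 8.54 FPKM and had log2 fold changes of -0.02 (SE 0.13) and -0.07 (SE 0.13), at limma adjusted p-values of 0.953 and 0.772. Igfbp1, a fasting-responsive binding protein gene, was at 382, 276 and 339 FPKM in CD and at 289, 90.2 and 42.5 in CD_DSS. The groups of Igfbp1 overlapped, at -1.66 (SE 0.57, limma adjusted p = 0.114) on CD and -0.54 (SE 0.57, adjusted p = 0.605) on HFD. Igfbp2 was at 0.65 (SE 0.21, limma adjusted p = 0.104) and 0.06 (SE 0.21, adjusted p = 0.902). Igf1r, the receptor gene of IGF1, stayed at or under 0.316 FPKM in all 12 libraries.

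Liver transcription factors of the growth hormone response were read from 16 genes, of which 14 were tested. Hnf4a, which encodes a master regulator of hepatocyte genes, rose on both diets, by 0.48 (SE 0.11, limma adjusted p = 0.0385) on CD and 0.59 (SE 0.11, adjusted p = 0.0228) on HFD. Hnf4a was at 161, 160.3 and 159 FPKM in CD and at 206, 208 and 263 in CD_DSS. It was at 152, 135 and 148 FPKM in HFD and at 225, 198 and 233 in HFD_DSS, above every untreated library on each diet. Trim24, a coregulator gene with female-biased expression, rose on HFD by 0.59 (SE 0.12, limma adjusted p = 0.0257). Hnf4a kept its call in 4 of 12 fits without 1 library on CD and in 8 on HFD, and Trim24 in 8. Without HFD 2, HFD 3, HFD_DSS 1 or HFD_DSS 3 neither was called on HFD, and on CD Hnf4a was not called without any library of CD, CD_DSS 2, CD_DSS 3, HFD 2, HFD 3 or HFD_DSS 3. Cux2, a repressor gene of female liver, was at 0.435 and 1.62 FPKM in CD_DSS 2 and 3 and at or under 0.142 in the other 10 libraries. It stayed under the filter and was not tested.

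Bcl6, Cish and Onecut1, whose transcripts respond to a growth hormone pulse within hours, varied as much within groups as between them. Bcl6, a repressor gene, was at 1.5, 14.4 and 9.29 FPKM in CD, at 5.01, 11.7 and 3.75 in HFD, at 8.68, 1.46 and 3.01 in CD_DSS, and at 0.936, 8.42 and 7.22 in HFD_DSS. Cish, a feedback inhibitor gene like Socs2, was at 1.77, 0.193 and 0.339 FPKM in CD, at 2.06, 0.251 and 4.69 in HFD, at 0.486, 4.06 and 1.05 in CD_DSS, and at 4.91, 0.902 and 1.54 in HFD_DSS. Onecut1, a hepatocyte nuclear factor gene, was at 6.64, 1.02 and 5.43 FPKM in CD, at 1.21, 1.61 and 4.78 in HFD, at 0.318, 2.73 and 1.36 in CD_DSS, and at 4.74, 1.81 and 2.74 in HFD_DSS. Libraries with high Cish had low Bcl6, and the reverse. With DSS the log2 fold changes were -0.69 (SE 0.78) on CD and -0.42 (SE 0.78) on HFD for Bcl6, 0.60 (SE 0.62) and 0.13 (SE 0.62) for Cish, and -1.03 (SE 0.55) and 0.28 (SE 0.55) for Onecut1. The limma adjusted p-values of these 6 values lay between 0.282 and 0.928.

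Over the 12 libraries, 4 relations between these genes and Socs2 on the log2(FPKM + 1) scale were computed, chosen after the values were seen. The same values chose the pairs, and the adjustment covers only these 4, so the p-values are a description and nothing is concluded from them. Cish and Bcl6 ran opposite, with Pearson's r = -0.833 (permutation p = 0.00202, adjusted over the 4 relations 0.00808) and Spearman's rho = -0.902 (permutation p = 0.00024, adjusted 0.00096). Without the 2 libraries farthest from the median of Cish, r was -0.842. Among the 6 libraries without DSS r was -0.766 (exact permutation p = 0.0694, adjusted 0.139), and among the 6 with DSS it was -0.89 (exact permutation p = 0.0361, adjusted 0.144). The last value rests on single libraries: without the 2 farthest of those 6, r was -0.295. Socs2 and Onecut1 ran together, with r = 0.728 (permutation p = 0.0104, adjusted 0.0208) and rho = 0.783 (permutation p = 0.0046, adjusted 0.0092), and r = 0.896 without the 2 libraries farthest in Socs2. Without DSS this r was 0.965 (6 libraries, exact permutation p = 0.0139, adjusted 0.0556) and with DSS 0.466 (6 libraries, exact permutation p = 0.331, adjusted 0.661). Within neither set of 6 did an adjusted p of these relations pass 0.05. Socs2 showed no such relation with Cish (r = 0.166, permutation p = 0.593, rho = 0.189, permutation p = 0.556) or Bcl6 (r = -0.171, permutation p = 0.586, rho = -0.217, permutation p = 0.5). Of the exon bases of Onecut1, 52.8% are shared with the same-strand transcript Gm20649, so its level is uncertain.

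**Figure D4:**
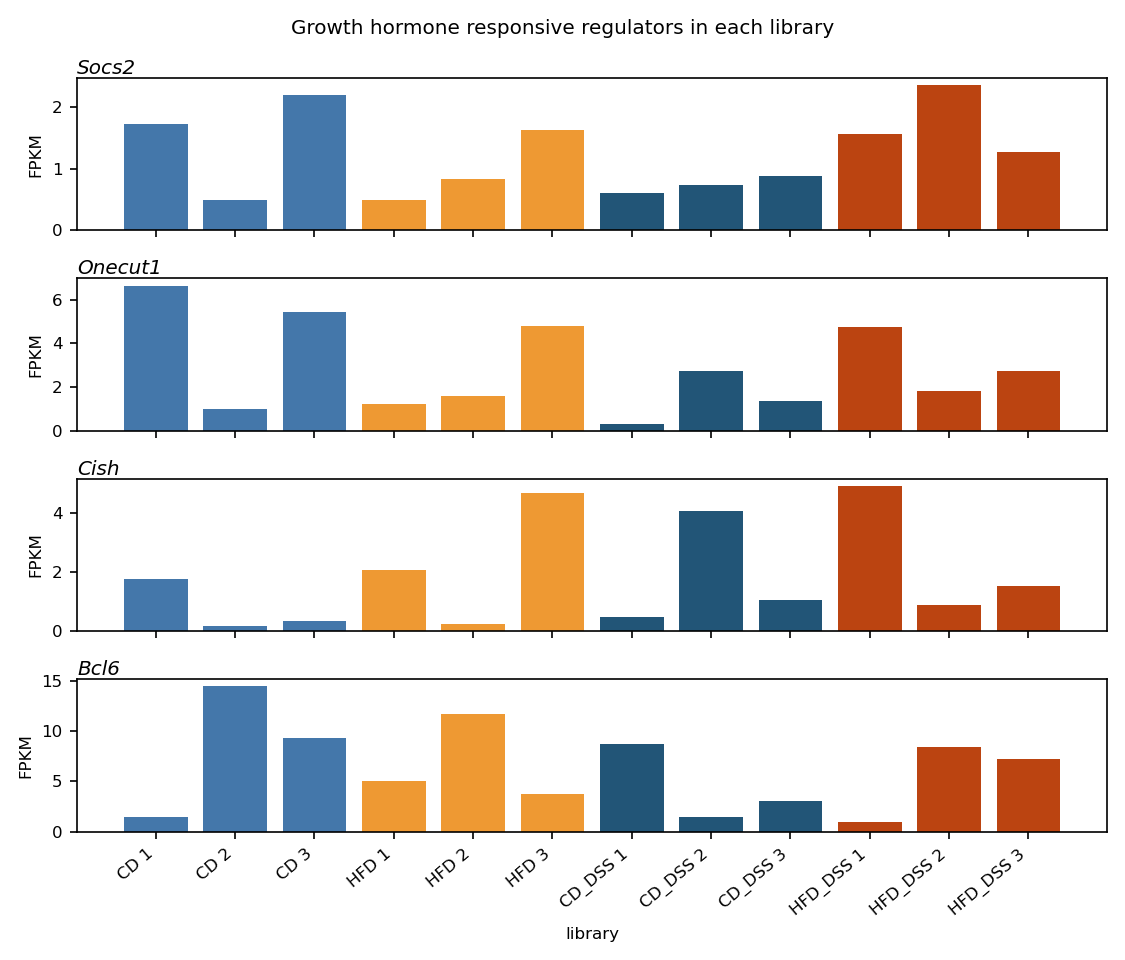
FPKM (y axes, from 0) of Socs2, Onecut1, Cish and Bcl6 in each of the 12 libraries (x axis), coloured by group. Cish is high where Bcl6 is low, as in HFD_DSS 1 (4.91 and 0.936 FPKM) and CD 2 (0.193 and 14.4 FPKM), and the order changes from library to library within each group.

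Other male-biased liver genes, a list of 25 without the 10 genes above, were tested for 23. This list too was chosen with earlier results of these data known, so nothing is read from its counts. With DSS on CD, 7 fell and none rose, where 2.79% of all genes tested fell, and 21 of the 23 had a negative fold change. Serpina4-ps1 fell by 2.64 (SE 0.41, limma adjusted p = 0.0087), Ugt2b38 by 1.62 (SE 0.35, adjusted p = 0.0292), Ugt2b1 by 1.35 (SE 0.32, adjusted p = 0.0393), Mup21 by 1.2 (SE 0.28, adjusted p = 0.0377), Mup7 by 1.19 (SE 0.27, adjusted p = 0.0344) and Susd4 by 0.68 (SE 0.12, adjusted p = 0.0157). The Ugt2b genes encode enzymes that conjugate steroids and other compounds, and the Mup genes encode major urinary proteins, a family of near-identical copies whose separate counts are uncertain. On HFD, 5 fell and none rose, where 3.1% of all genes tested fell, and 20 of the 23 were negative. These were Ugt2b38 by 1.56 (SE 0.35, limma adjusted p = 0.0327), Ugt2b1 by 1.53 (SE 0.32, adjusted p = 0.0272), Cyp2u1 by 1.15 (SE 0.19, adjusted p = 0.0127), Mup20 by 1.02 (SE 0.25, adjusted p = 0.0453) and the glutathione transferase gene Gstp1 by 0.77 (SE 0.19, adjusted p = 0.0435). The list median was -0.55 on CD and -0.53 on HFD. With TPM, 5 fell on CD, and 1 rose and 1 fell on HFD, with medians of -0.59 and -0.62.

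Ugt2b1 was at 473, 430.5 and 466 FPKM in CD and at 256, 152 and 146 in CD_DSS. Under HFD the levels were 362, 329.9 and 348 FPKM, and 70.8, 207 and 114 with DSS, below every untreated library. Serpina4-ps1, a pseudogene transcript, was at 109.5, 45.2 and 125 FPKM in CD and at 17.0, 16 and 7.66 in CD_DSS, but at 93.2, 50.5 and 118 in HFD and 60.6, 60.1 and 60.4 in HFD_DSS. Its DSS effect differed between the diets by 2.20 (SE 0.57) at a limma adjusted p of 0.699. Cyp7b1, an oxysterol hydroxylase gene, was at -1.67 (SE 0.49, limma adjusted p = 0.0768) on CD and -0.86 (SE 0.49, adjusted p = 0.305) on HFD. Cyp2d9 was at -0.26 (SE 0.15, limma adjusted p = 0.319) and -0.46 (SE 0.15, adjusted p = 0.092), and the transporter gene Slco1a1 at -0.45 (SE 0.22, adjusted p = 0.248) and -0.31 (SE 0.22, adjusted p = 0.421). Without HFD 1, CD_DSS 1 and HFD_DSS 2, again picked after the data were seen, 12 genes of the list were called on CD and 10 on HFD. Leaving out 1 library gave 1 call on CD without CD 2, CD 3, CD_DSS 2 or CD_DSS 3, 3 without HFD 3, 4 without CD 1 or HFD_DSS 3, and 11 without CD_DSS 1. On HFD it gave 0 calls without HFD 2 or HFD_DSS 1, 1 without HFD 3 or HFD_DSS 3, and 3 without CD 2 or CD_DSS 2.

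The female-biased list had 32 genes, of which 11 were tested and 19 were under 1 FPKM in all 12 libraries. Sult2a1 and Cyp2b9, which are high in female liver, stayed at or under 0.0452 and 0.220 FPKM in every library, DSS included. With DSS on CD, 1 rose (the peroxisomal transporter gene Abcd2, by 1.36, SE 0.27, limma adjusted p = 0.0224) and 2 fell (Cyp2c40 by 1.67, SE 0.39, adjusted p = 0.0393, and Fmo1 by 0.61, SE 0.13, adjusted p = 0.0289). On HFD, 1 rose (Trim24, above) and 2 fell: Hamp2 by 2.48 (SE 0.55, limma adjusted p = 0.0327) and Fmo1 by 0.52 (SE 0.13, adjusted p = 0.0458). The median was 0.10 on CD and 0.31 on HFD. Each of these calls was lost in at least 4 of the 12 fits without 1 library.

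**Figure D5:**
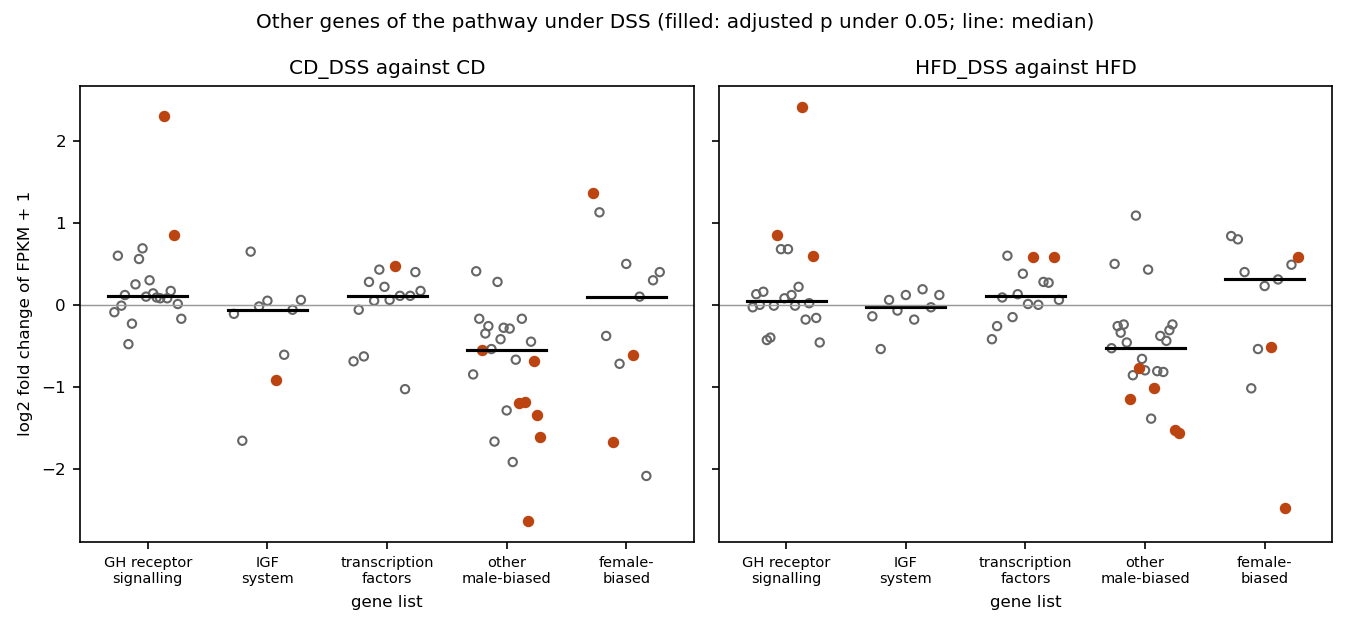
Log2 fold change of FPKM + 1 with DSS (y axis) of each tested gene of 5 lists (x axis), on CD (left) and HFD (right). Filled points had an adjusted p under 0.05 and lines are list medians. The lists were chosen with earlier results of these data known. The other male-biased genes lie mostly below 0 on both diets, with medians of -0.55 and -0.53, and the other 4 lists have medians from -0.06 to 0.31.

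Acute phase and IL-6 response genes moved with DSS beside the 10 genes. Of 29 tested genes of that list, 29 had a positive fold change on each diet, 3 rose on CD and 8 on HFD, and the medians were 1.26 and 1.63. The calls included Fga, a fibrinogen chain gene, at 1.24 (SE 0.31, limma adjusted p = 0.0479) on CD and 1.28 (SE 0.31, adjusted p = 0.041) on HFD. On HFD they also included the metallothionein gene Mt2 at 4.84 (SE 1.22, limma adjusted p = 0.0475), Apcs at 3.19 (SE 0.79, adjusted p = 0.0446) and Itih4 at 1.48 (SE 0.34, adjusted p = 0.0352). Saa1 itself was not called, at 2.25 (SE 1.65, adjusted p = 0.448) and 3.65 (SE 1.65, adjusted p = 0.208), given its spread within groups. The summed FPKM of the 30 genes was 10422 to 12627 (CD), 10284 to 23995 (HFD), 13776 to 42415 (CD_DSS) and 24036 to 56679 (HFD_DSS). The counts of calls depended on single libraries. On CD there was 1 call without CD 2, CD_DSS 2 or CD_DSS 3, 6 without HFD 1, 8 without HFD_DSS 2 and 20 without CD_DSS 1. On HFD there were 0 without HFD 2, 1 without HFD_DSS 1 or HFD_DSS 3, 2 without CD 2 or HFD 3, and 3 without CD 1, CD 3 or CD_DSS 2. Leaving out HFD 1 gave 17 there, HFD_DSS 2 gave 19 and CD_DSS 1 gave 21. Without HFD 1, CD_DSS 1 and HFD_DSS 2 together, 28 were called on CD and 29 on HFD. These libraries were picked after the data were seen, by their own levels of acute phase genes. That choice favours calls in this list, so nothing is read from these counts. The part of the acute phase in the levels of the 10 genes was not tested.

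Markers of other liver cells were read for the same reason. All 10 Kupffer cell and macrophage genes had a positive fold change with DSS on both diets, with summed FPKM of 226 to 292 (CD), 244 to 382 (HFD), 271 to 502 (CD_DSS) and 337 to 488 (HFD_DSS). The 7 neutrophil genes summed to 1.97 to 3.65 FPKM in CD, 2.08 to 25.1 in HFD, 4.42 to 24.7 in CD_DSS and 5.86 to 59.5 in HFD_DSS. The 7 hepatocyte genes summed to 43557 to 47394 FPKM in CD, 36606 to 41866 in HFD, 47876 to 51802 in CD_DSS and 27871 to 48324 in HFD_DSS. The 6 endothelial genes, the 6 stellate cell and fibroblast genes and the 5 cholangiocyte genes had list medians between -0.06 and 0.42 with DSS. Among them Sox9, a cholangiocyte gene, rose by 0.76 (SE 0.10, limma adjusted p = 0.00458) on CD and 1.07 (SE 0.10, adjusted p = 0.000851) on HFD. The endothelial gene Clec4g rose on CD by 0.48 (SE 0.11, limma adjusted p = 0.0396), and on HFD the stromal gene Dcn rose by 0.71 (SE 0.15, adjusted p = 0.0289) and the macrophage gene Marco by 1.90 (SE 0.44, adjusted p = 0.0358). All 6 T and B cell genes stayed under 1 FPKM in the 12 libraries. Alb did not pass the test with DSS, at 0.28 (SE 0.24, limma adjusted p = 0.525) on CD and -0.13 (SE 0.24, adjusted p = 0.783) on HFD. Of the 7 hepatocyte genes, 5 had a negative fold change on CD (median -0.15) and 7 on HFD (median -0.13). Tat, which encodes tyrosine aminotransferase, fell on CD by 1.23 (SE 0.24, limma adjusted p = 0.0225). Cps1, a urea cycle gene, lay below without overlap there, at -0.40 (SE 0.19, limma adjusted p = 0.218). Of the hepatocyte genes, 2 lay below and 1 above without overlap on CD, where 14.4% and 12.6% of all genes tested did. On HFD, 3 lay below and 0 above, where 14.7% and 12.4% did. The part of cell composition in the levels of the 10 genes was not tested.

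The genes most like 4 of the 10 over the 12 libraries were found by Pearson's r on the log2(FPKM + 1) scale, as a description over libraries that share groups. For Ghr these were Letm1 (r = 0.985), Gfm1 (r = 0.977) and Tbcel (r = 0.965). For Hsd3b5 they were Slc25a21 (r = 0.943), Scp2 (r = 0.939) and Caprin1 (r = 0.939). For Socs2 they were Lims1 (r = 0.838), Lipo3 (r = 0.835) and Ckap5 (r = 0.804), and for Igf1 they were Pgk1-rs7 (r = 0.819), Utp14b (r = 0.814) and Skil (r = 0.798). With group means removed, r was 0.934 to 0.981 for the 3 genes of Ghr and 0.576 to 0.657 for those of Igf1. It was 0.733 to 0.795 for those of Socs2. For Hsd3b5 it was 0.727 (Slc25a21), 0.916 (Scp2) and 0.925 (Caprin1).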

How the data were processed

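Per the labels' protocols, Qiagen RNeasy was used for liver RNA and a SMARTer kit for the mRNA libraries. The authors deposited 1 table of FPKM per Ensembl gene ID and library. The submitters' processing notes name build mm10. No aligner, counter or annotation is named there. Of the 54532 IDs, 54495 (99.9%) matched a symbol in GENCODE vM21 (mm10), whose exon lengths were used to recover whole fragments. Of values under 500 fragments, 97.0 to 97.3% came within 0.02 of a whole number, and depth was 23.4 to 29.4 M fragments. Another 4 columns that match no sample were not used.

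The 10806 genes that reached 1 FPKM in 3 or more libraries were tested on log2(FPKM + 1) with limma 3.58.1 (R 4.3.3; eBayes with trend, 4 group means, two-sided, Benjamini-Hochberg over all genes tested). Such fold changes understate those of low genes. The 5 comparisons share groups: HFD against CD, DSS on each diet, diet with DSS, and the difference between the DSS effects. Relations used permutation tests (scipy 1.17.1, two-sided, 100000 resamples, exact for 6 libraries). Identical stretches were found with blastn 2.17.0. The fit was also run on simulated data with normal noise of the same spread in every group. The spread here was unequal, as for Elovl3, whose SD on the log2 scale was 0.17 in CD and 1.84 in CD_DSS. That run therefore says nothing on the calls above.

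The 10 genes and all gene lists were chosen with earlier results of these data known. Named were all 10 genes, fixed signalling, marker and target genes, up to 6 called genes of each list by size of fold change, and the 3 genes most like Ghr, Igf1, Socs2 and Hsd3b5. The values of 1 fixed gene are not reported here. Alternatives changed the pseudocount, filter, scaling, library weights, groups fitted, replicate block and test (voom on recovered fragments), and left out each library, and 3 libraries together.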

Additional observations from a re-analysis of the deposited data

Results flagged for a closer look

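Igf1 was lower with DSS on CD and higher with DSS on HFD in these libraries. Each CD_DSS library lay below each CD library and each HFD_DSS library above each HFD library, and the difference of the log2 fold changes was 0.55 (SE 0.15). Its unadjusted p was 0.00362 and its limma adjusted p over all genes tested was 0.708, so a difference between the diets was not shown. Without HFD_DSS 2 the fold change on HFD was 0.11 in place of 0.23. Igf1 was itself chosen with its DSS values known.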

How the results depend on the processing

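With 3 libraries a group, calls near the threshold moved with many settings. On CD and HFD, 5 and 2 of the 10 genes were called with DSS, and 14 and 12 of the other genes of 5 lists. Without the filter on low values these were 1 and 0 of the 10, and 4 and 3 others. With TPM they were 3 and 1, and 9 others on CD. With quantile normalization 3 of the 10 were called on CD. With each pair of groups fitted alone, 1 of the 10 was called on HFD, and 9 and 4 others. Library weights gave 9 and 6, and 29 and 25 others, and in HFD against CD 3 others, and in HFD_DSS against CD_DSS 1 of the 10 and 5 others, where the main count is 0. A pseudocount of 0.1 FPKM gave 1 other gene in HFD_DSS against CD_DSS. Without HFD 1, CD_DSS 1 and HFD_DSS 2, chosen after seeing the data, 8 and 7 of the 10 and 26 and 25 others were called, with 2 others in HFD_DSS against CD_DSS. Leaving out 1 library gave 1 to 7 and 0 to 4 of the 10, 2 to 23 and 0 to 13 others, and 0 to 1 others in HFD_DSS against CD_DSS. Same-numbered libraries did not deviate together (r from -0.36 to 0.26), so the numbers were not taken as pairs; with the replicate block 3 of the 10 were called on CD, 7 and 4 others, and 1 other in HFD against CD. For the 23 other male-biased genes, called 7 and 5 times, no filter gave 2 and 1, the block 2 and 1, library weights 15 and 11, and 2 groups alone 1 on HFD. For the acute phase genes, 3 and 8, library weights gave 23 and 29, TPM 7 and 10, and quantile normalization 8 and 12. Voom gave 6 and 12 of them, and a filter at a mean of at least 5 FPKM 6 and 13. On HFD, no filter, 2 groups alone and the replicate block each gave 2. The cause of these moves was not tested.

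These and the other settings also changed the sign of single genes, each time without a call. In HFD against CD, Ghr was at 0.00 without CD 3, and at 0.02 without HFD 1 and without the 3 libraries. Nudt7 was at -0.05 without CD 1, and at -0.02 without HFD 1 and without the 3 libraries. Elovl3 was at -0.04 with library weights, and at -0.01 without HFD 1 and without the 3 libraries. Socs2 was at 0.13 with library weights. Cyp4a12a was at -0.03 (TPM), -0.01 (quantile), -0.15 (library weights), -0.05 without HFD 2, and from -0.35 (without CD 1) to 0.21 over left-out libraries. Cyp4a12b was at 0.00 (TPM), -0.27 (library weights), -0.09 without HFD 3, and from -0.30 (without CD 1) to 0.36. In HFD_DSS against CD_DSS, Elovl3 ranged from -0.08 (without HFD_DSS 2) to 1.78, and Cyp4a12b from -0.83 to 0.52 (without HFD_DSS 1), with 0.04 without CD_DSS 1. For the difference between the DSS effects, Igfals was at -0.04 without CD_DSS 1 and -0.15 without the 3 libraries, and Elovl3 ranged from -0.19 (without HFD_DSS 2) to 1.67. Cyp4a12b was at 0.19 with library weights, 0.05 without CD 1 and 0.01 without CD_DSS 1, and ranged from -0.86 to 0.49 (without HFD_DSS 1).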

Other observations

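Of the 32 female-biased liver genes, the 11 tested were lower on HFD than on CD, without passing the test, and 19 were under 1 FPKM in all 12 libraries. All 11 tested genes of that list had a negative fold change in HFD against CD (median -0.60) and in HFD_DSS against CD_DSS (median -0.58), against 0.01 and 0 over all genes. Cyp2c40, a cytochrome P450 gene named after its values were seen, was at 38.9, 14.1 and 23.1 FPKM in CD and at 6.11, 2.17 and 3.23 in HFD. Its log2 fold change was -2.42 (SE 0.39, limma adjusted p = 0.115). Abcd2 of the same list was at -0.06 (SE 0.27) in HFD against CD. None of the 11 was called by limma or voom in either comparison, and 6 and 5 had an unadjusted p under 0.05. No share over all genes is given at this unadjusted threshold. The list was chosen with earlier results of these data known, so nothing is read from these counts.

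For the other male-biased genes, none was called with diet by limma or voom, and 7 and 8 of 23 had an unadjusted p under 0.05. These counts too have no share over all genes beside them. Their median was 0.12 in HFD against CD and 0.24 in HFD_DSS against CD_DSS, with 16 and 19 of 23 positive. Mup7, a major urinary protein gene, was at 3115, 6125 and 6653 FPKM in CD and at 10009, 7980.1 and 7799 in HFD. With DSS it was at 1813, 2094 and 2826 FPKM on CD and at 4996, 4825 and 4678 on HFD, so for Mup7 the diets did not overlap with or without DSS. Without overlap, 5 of the 23 lay above and 2 below in HFD against CD, where 6.58% and 6.54% of all genes tested did. With DSS these were 7 and 2, where 7.53% and 8.97% did. Cyp2c70 of this list lay below in both comparisons, at -0.76 (SE 0.15, limma adjusted p = 0.199) and -0.65 (SE 0.15, limma adjusted p = 0.133). The list was chosen with earlier results of these data known, so its counts are a description.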
